A study of Homo sapiens with 12 samples.

Results

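The genes described here are CD276, CD274, which encodes PD-L1, and 7 genes of HLA class I antigen presentation, namely HLA-B, HLA-C, B2M, TAP1, TAP2, NLRC5 and PSMB9. They were chosen by name, with earlier results of these data known, and found by symbol. They make up 9 of the 58051 genes counted in each library. RNA-seq was performed on 12 libraries from 3 established lines of renal carcinoma, namely ACHN, A-498 and 786-O, collected 48 h after reverse transfection with 10 nM of a small RNA. The study asked what restoring or blocking miR-29, a family of microRNAs, does to transcript levels in these lines. 786-O cells received a miR-29 mimic (1 library) or a control mimic (1 library), A-498 cells received the miR-29 mimic (2 libraries) or the control mimic (2 libraries), and ACHN cells received a miR-29 inhibitor (3 libraries) or a control inhibitor (3 libraries). No agent other than the transfected RNA differs between the groups of a line in the labels, and each line is a single tumour-derived line, so replicates are separate samples of 1 line and not of several tumours. The study's methods call the replicates biological and set aside 2 further A-498 libraries over doubtful labels, which were not analysed here.

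Class I molecules carry peptides from inside the cell to the surface, where CD8+ T cells read them. The proteasome cuts the peptides, with PSMB9 replacing a constitutive subunit in the immunoproteasome, TAP1 and TAP2 form the transporter that moves them into the endoplasmic reticulum, and the HLA heavy chains bind them together with the light chain, B2M. NLRC5 is a transactivator of class I genes. HLA-B, HLA-C, TAP1, TAP2 and PSMB9 lie in the major histocompatibility complex on chromosome 6, with TAP2 at chr6:32821833-32838739, TAP1 at chr6:32845209-32853816 and PSMB9 across from it on the other strand (GRCh38). CD276 (chr15:73683966-73714514) and B2M lie on chromosome 15, CD274 (chr9:5450503-5470566) on chromosome 9 and NLRC5 on chromosome 16. CD276 (B7-H3) and PD-L1 are surface proteins of the B7 family, and PD-L1 restrains T cells through the receptor PD-1. A microRNA guides a silencing complex to messages that pair with its seed, bases 2 to 8 of the mature strand, most often in the 3′ untranslated region.

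The miR-29 sequences are shown because the seed sets which letters were searched for in the 9 genes. RefSeq (GRCh38.p14) gives the human mature strands as follows, with the seed in capitals, and all of them share the seed AGCACCA.
miR-29a-3p: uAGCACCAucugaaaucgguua
miR-29b-3p: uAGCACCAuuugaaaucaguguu
miR-29c-3p: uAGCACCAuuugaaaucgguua
The mature strand that the study states for its mimic carries the same seed but differs from each of these strands beyond it. The complement of the seed, TGGTGCT, was searched on the sense strand of the 3′ untranslated region of the canonical transcript of each gene (GENCODE 44, GRCh38).

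Of the 9 genes, 2 held the full 7-base match, CD276 and TAP2, against 2667 of 19023 genes with an annotated 3′ untranslated region. In CD276 the match was followed by an A and began 1339 nt after the stop codon, in the last part of a region of 1558 nt. In TAP2 it began 2935 nt after the stop codon, in a region of 3491 nt. The 30-base windows around both are printed because these genes gave the largest falls with the mimic in A-498, and the capitals mark the bases that pair with the seed, plus the A in CD276.
CD276, 3′ untranslated region, chr15:73714281-73714310, plus strand: ccccacccccaccaTGGTGCTAttctgggg
TAP2, 3′ untranslated region, chr6:32825956-32825985, minus strand: tactaagcattcacTGGTGCTtactatgtg
Both genes also held a shorter match of 6 bases, GGTGCT, at 927 nt in CD276 and at 1129 nt in TAP2. CD274, NLRC5 and PSMB9 held only such a 6-base match, 1 each, and HLA-B, HLA-C, B2M and TAP1 held none. Any match, the 6-base form included, was found in 29.4% of the 19023 genes. A match is a description of the letters and no evidence of binding.

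CD276 changed more than any other member in A-498 and 786-O, and in ACHN its rise and that of CD274 were within their errors of each other. The values below are counts scaled to a common library total (CPM), scaled within a line by the trimmed mean of M-values (TMM), and each comes from 1 library. A gene was called where the adjusted p was under 0.05. In bulk RNA, fewer cells with a message and less message per cell cannot be told apart. In A-498, CD276 stood at 132 and 122 CPM in the control libraries and at 39.7 and 40.6 CPM in the mimic libraries. Both mimic libraries lay below both controls, with means of 40.2 ± 0.692 and 127 ± 7.28 CPM (SD, n = 2), a level 3.17-fold lower. The log2 fold change was -1.66 (SE 0.05, edgeR quasi-likelihood test, adjusted p = 5.11e-12), and 168 of 19676 tested genes had a lower value. In 786-O, CD276 stood at 113 CPM in the control and 34.5 CPM in the mimic library, 3.28-fold lower with an exact 95% counting interval of 3.09 to 3.47. Intervals of this kind cover counting error only, and 1 library a group gives no replicate error in 786-O. In ACHN, CD276 stood at 81.0, 86.7 and 91.1 CPM in the controls and at 141, 155 and 141 CPM with the inhibitor. The ACHN groups did not overlap, and the level was 1.69-fold higher with the inhibitor (log2 fold change 0.75, SE 0.0535, adjusted p = 5.63e-09).

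**Figure D1:**
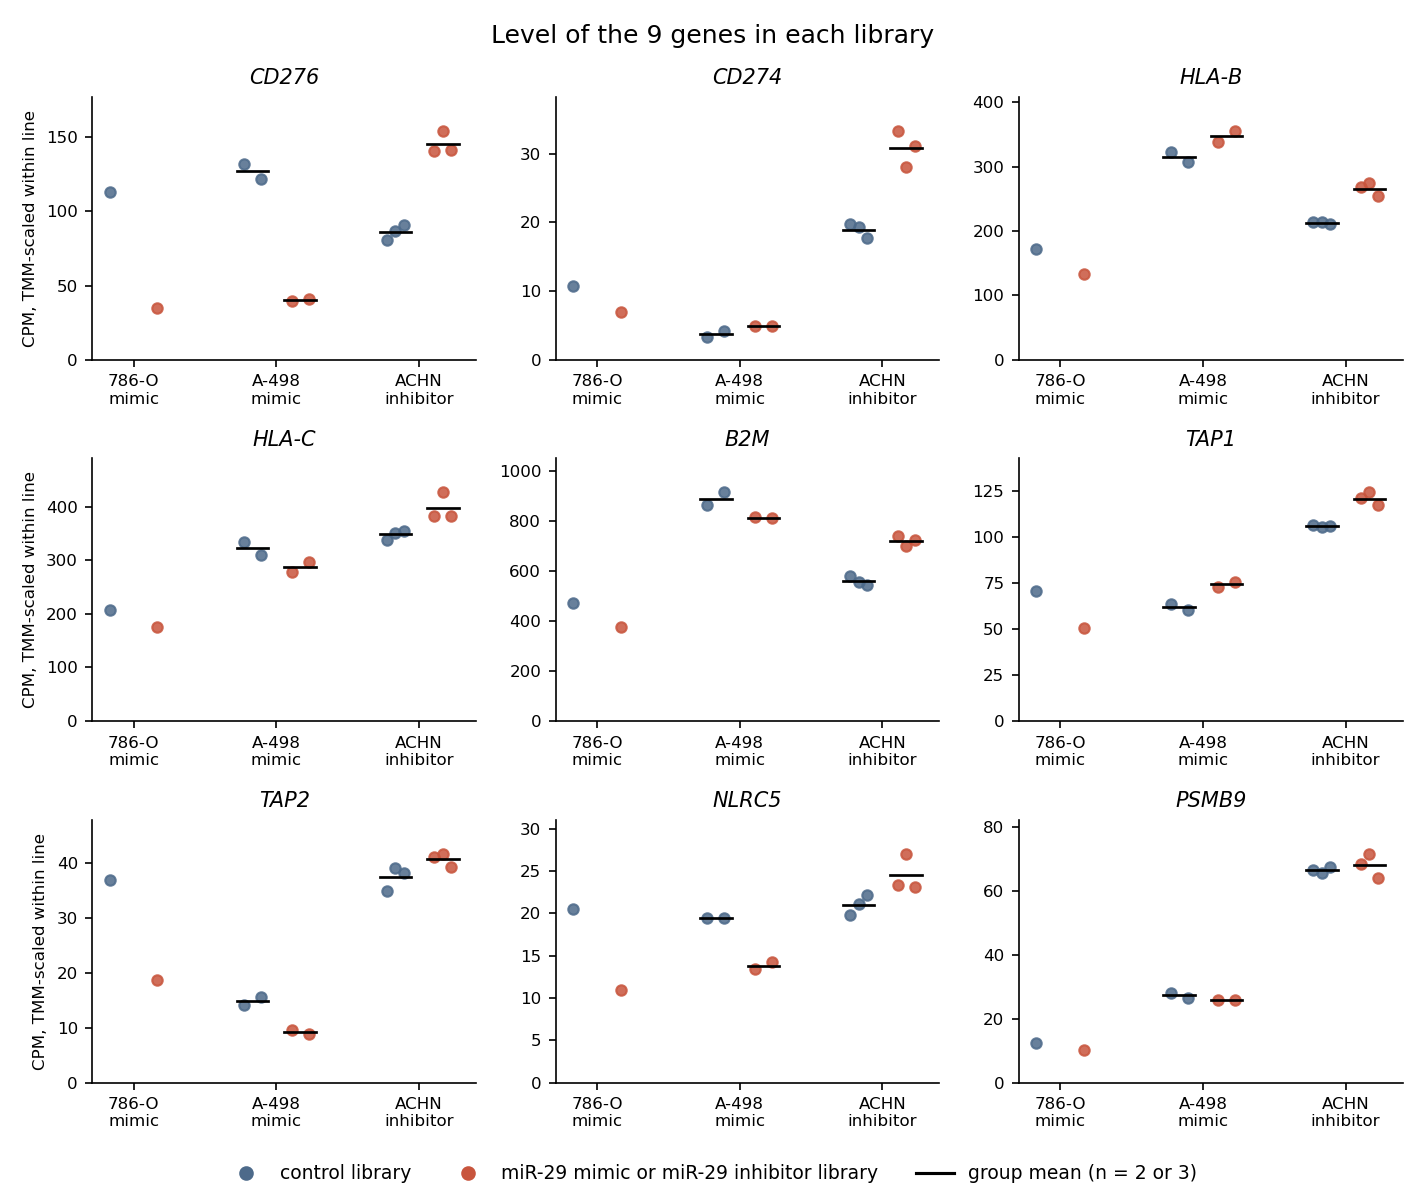
Level of each of the 9 genes (y axis, CPM scaled by TMM within a line, starting at 0) in every library of the 3 lines (x axis). Blue points are control libraries, red points are mimic libraries (786-O, A-498) or inhibitor libraries (ACHN), and black bars are group means where n is 2 or 3. CD276 falls from 127 to 40.2 CPM in A-498 and rises from 86.3 to 145 CPM in ACHN, while CD274 lies lower in the 786-O mimic library and higher in the A-498 mimic libraries.

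CD274 had the steepest rise after CD276 in ACHN but no common direction under the mimic. In ACHN it stood at 19.8, 19.3 and 17.7 CPM in the controls and at 33.3, 28.1 and 31.1 CPM with the inhibitor. Every inhibitor library lay above every control, 1.63-fold on the means (log2 fold change 0.70, SE 0.0654, adjusted p = 1.64e-07). In A-498 it was low, at 3.32 and 4.15 CPM in the controls and 4.92 and 4.84 CPM with the mimic. The A-498 groups did not overlap (log2 fold change 0.38, SE 0.122, adjusted p = 0.0166), but the call was lost in DESeq2 (adjusted p = 0.116) and without control replicate 1 (adjusted p = 0.153). In 786-O, CD274 stood at 10.7 CPM in the control and 6.95 CPM with the mimic, 1.54-fold lower (95% counting interval 1.33 to 1.78).

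The heavy chains HLA-B and HLA-C moved by less than CD276 and went opposite ways in A-498. HLA-B stood at 322 and 307 CPM in the A-498 controls and at 338 and 356 CPM with the mimic, higher in both mimic libraries (log2 fold change 0.14, SE 0.0393, adjusted p = 0.00805). HLA-C stood at 335 and 309 CPM in the controls and at 277 and 297 CPM with the mimic, lower in both (log2 fold change -0.17, SE 0.0452, adjusted p = 0.00691). Neither call held throughout: that of HLA-B was lost without mimic replicate 2 (adjusted p = 0.218), and that of HLA-C without mimic replicate 1 (adjusted p = 0.133) and with library size in place of TMM (adjusted p = 0.113). In ACHN both rose. HLA-B went from 214, 214 and 211 CPM in the controls to 268, 274 and 254 CPM with the inhibitor (log2 fold change 0.32, adjusted p = 1.11e-05), and HLA-C from 339, 350 and 355 CPM to 383, 427 and 384 CPM (log2 fold change 0.19, adjusted p = 0.00269). In 786-O both were lower with the mimic, HLA-B by 1.3-fold (171 against 132 CPM) and HLA-C by 1.17-fold (207 against 176 CPM). These genes are close copies of each other and vary between people, and 32.8% of the annotated exon bases of HLA-B lie under other genes on the same strand. For HLA-C that share was 0%. The counts of both are uncertain because the genes are alike, by an amount that the overlap does not give. How many of their reads were set aside as shared was not measured.

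B2M, the light chain shared by all class I molecules, had the highest level per length of the 9 genes. It stood at 581, 558 and 546 CPM in the ACHN controls and at 742, 700 and 725 CPM with the inhibitor, with no overlap (log2 fold change 0.36, SE 0.0370, adjusted p = 5.61e-07). In A-498 it stood at 864 and 916 CPM in the controls and at 818 and 811 CPM with the mimic. This fall was small (log2 fold change -0.13, SE 0.0350, adjusted p = 0.00707) and the call was lost without mimic replicate 1 (adjusted p = 0.0504), without mimic replicate 2 (adjusted p = 0.106) and with library size in place of TMM (adjusted p = 0.237). In 786-O it went from 474 to 378 CPM, 1.25-fold lower.

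The transporter subunits parted in A-498. TAP2, which holds the 7-base match shown above, fell from 14.2 and 15.5 CPM in the controls to 9.63 and 8.90 CPM with the mimic (log2 fold change -0.68, SE 0.0800, adjusted p = 5.95e-06). TAP1, which holds none, rose from 63.5 and 60.4 CPM to 72.8 and 75.7 CPM (log2 fold change 0.26, SE 0.0472, adjusted p = 0.000309). Both calls held under every alternative run for this comparison. The part of the match in these changes was not tested. In 786-O both were lower with the mimic, TAP2 by 1.97-fold (36.9 against 18.7 CPM) and TAP1 by 1.40-fold (70.8 against 50.6 CPM). In ACHN, TAP1 rose from 107, 105 and 106 CPM to 121, 124 and 117 CPM with the inhibitor (log2 fold change 0.19, adjusted p = 0.00305). TAP2 stood at 35.0, 39.1 and 38.3 CPM in the ACHN controls and at 41.0, 41.7 and 39.3 CPM with the inhibitor, without overlap but short of the threshold (log2 fold change 0.12, SE 0.0510, adjusted p = 0.0817). Of the exon bases of TAP2, 19.5% lie under another gene on the same strand.

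NLRC5 fell in A-498 and rose weakly in ACHN. It stood at 19.4 CPM in both A-498 controls and at 13.4 and 14.2 CPM with the mimic (log2 fold change -0.49, SE 0.0670, adjusted p = 2.41e-05). In ACHN it stood at 19.8, 21.1 and 22.1 CPM in the controls and at 23.4, 27.0 and 23.1 CPM with the inhibitor (log2 fold change 0.22, SE 0.0666, adjusted p = 0.0148). The ACHN call was lost without control replicate 1 (adjusted p = 0.0937), control replicate 2 (adjusted p = 0.0520) or inhibitor replicate 2 (adjusted p = 0.0501). In 786-O, NLRC5 went from 20.5 to 10.9 CPM, 1.87-fold lower.

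PSMB9 passed the test in neither line. It stood at 28.0 and 26.5 CPM in the A-498 controls and at 25.7 CPM in both mimic libraries (log2 fold change -0.083, SE 0.0580, adjusted p = 0.250). In ACHN the groups overlapped, at 66.7, 65.5 and 67.5 CPM in the controls and 68.4, 71.6 and 64.1 CPM with the inhibitor (log2 fold change 0.030, SE 0.0474, adjusted p = 0.675). In 786-O it went from 12.3 to 10.3 CPM, 1.20-fold lower with a 95% counting interval of 1.06 to 1.36.

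Since the members and the lists below were picked with earlier results of these data known, their counts beside all genes are a description. Counted over the 9 genes, the A-498 mimic libraries had 5 lower, 3 higher and 1 not called, against 27.0% lower and 25.5% higher among all 19676 genes tested. With library size in place of TMM the members split 3 lower to 3 higher, and all genes went from 5313 lower and 5015 higher to 4352 lower and 6191 higher. In ACHN, 7 of 9 were higher and 0 lower with the inhibitor, against 17.3% higher and 14.4% lower among 17904 genes tested. The median log2 fold change of the members was -0.13 in A-498 and 0.22 in ACHN, beside medians over all genes of 0.0045 and 0.0038. The CPM of the groups did not overlap for 9 of 9 members in A-498 and 8 of 9 in ACHN, against 74.5% and 43.5% of all genes tested. In 786-O all 9 members had a log2 ratio below 0, against 51.0% of 20370 genes with 10 or more counts, and 1 of them, CD276, was at or below -1, against 8.96%.

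CD276, HLA-C, B2M and NLRC5 fell in A-498 with the mimic and rose in ACHN with the inhibitor, both past the threshold, which is 4 of 9 members against 10.5% of 16708 genes tested in both lines. These comparisons share no control libraries, but the members were picked with earlier results of these data known. With library size in place of TMM, or without A-498 mimic replicate 1, the pair CD276 and NLRC5 remained. Without A-498 mimic replicate 2, B2M dropped out. At an adjusted p under 0.01, or without ACHN control replicate 1, control replicate 2 or inhibitor replicate 2, NLRC5 dropped out and the other 3 remained, so that CD276 alone was kept in every setting run. In ACHN the inhibitor libraries were also the deeper ones, with 52369886 to 70027392 reads in genes against 39919554 to 48626762 in the controls, and the part of depth in the ACHN changes was not tested.

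**Figure D2:**
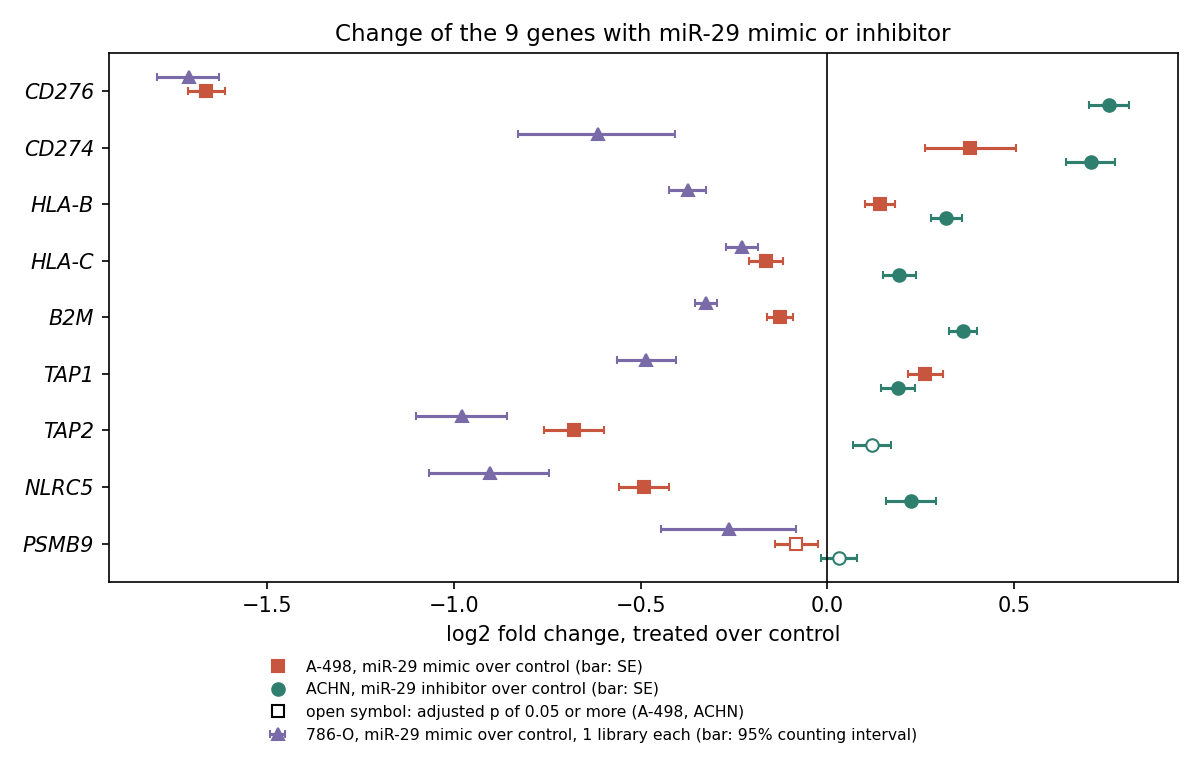
Log2 fold change of treated over control (x axis) for each of the 9 genes (y axis). Red squares are A-498 and green circles ACHN, with bars of 1 SE and open symbols where the adjusted p was 0.05 or more, and purple triangles are the 786-O log2 ratio with its 95% counting interval. CD276 lies at -1.66 (A-498), -1.71 (786-O) and 0.75 (ACHN), and CD274, HLA-B and TAP1 lie on opposite sides of 0 in A-498 and 786-O.

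The mimic was given to both 786-O and A-498, so its effect in one line can be set against that in the other. This test, an interaction term in a fit of the 6 libraries of both lines, takes the spread of the A-498 replicates as that of 786-O, which has 1 library a group, so its p-values rest on that assumption. The common coefficient of variation between replicates in this fit was estimated at 3.84%, far below the 0.2 set in an alternative below. The 6 libraries are scaled together, so the differences need not equal those between the values of each line given above, which were scaled within a line. For CD276 the effects differed by -0.0033 on the log2 scale (SE 0.0894, adjusted p = 1.00). Under that assumption the effect was lower in 786-O for 4 members, CD274 by -0.95 (SE 0.189, adjusted p = 0.000586), TAP1 by -0.70 (SE 0.0867, adjusted p = 3.04e-06), HLA-B by -0.47 (SE 0.0717, adjusted p = 3.93e-05) and NLRC5 by -0.37 (SE 0.127, adjusted p = 0.0344). Over all 22587 genes tested, 13.2% had a lower effect in 786-O by the same rule. The split over all genes, 2972 lower and 3723 higher, turned to 3931 lower and 2796 higher with library size in place of TMM. When the coefficient of variation was set at 0.2 for every gene, 0 of the 9 were called (281 genes in all). For HLA-C the difference was -0.017 (SE 0.0784), for B2M -0.15 (SE 0.0614), for TAP2 -0.26 (SE 0.127) and for PSMB9 -0.14 (SE 0.127), with adjusted p-values of 0.930, 0.0691, 0.145 and 0.474.

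Promoter stretches are printed for HLA-B, HLA-C, B2M and TAP1, as examples of class I genes among the 7 members called higher with the inhibitor in ACHN. Each is 160 bases, from position -200 to -41 relative to the RefSeq start (GRCh38.p14), read in the direction of the gene, with the motifs found in capitals.
HLA-B, chr6:31357220-31357379, minus strand: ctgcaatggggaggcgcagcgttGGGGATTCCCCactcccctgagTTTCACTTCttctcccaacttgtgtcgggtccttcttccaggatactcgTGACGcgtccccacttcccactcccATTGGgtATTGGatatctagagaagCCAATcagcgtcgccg
HLA-C, chr6:31272133-31272292, minus strand: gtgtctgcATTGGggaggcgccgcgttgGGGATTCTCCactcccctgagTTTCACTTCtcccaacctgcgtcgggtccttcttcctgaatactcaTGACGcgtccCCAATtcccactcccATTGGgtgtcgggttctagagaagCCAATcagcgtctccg
B2M, chr15:44711317-44711476, plus strand: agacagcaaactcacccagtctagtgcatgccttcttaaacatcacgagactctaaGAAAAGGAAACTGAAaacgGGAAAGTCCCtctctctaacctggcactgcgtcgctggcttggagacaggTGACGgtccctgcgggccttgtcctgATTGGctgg
TAP1, chr6:32853745-32853904, minus strand: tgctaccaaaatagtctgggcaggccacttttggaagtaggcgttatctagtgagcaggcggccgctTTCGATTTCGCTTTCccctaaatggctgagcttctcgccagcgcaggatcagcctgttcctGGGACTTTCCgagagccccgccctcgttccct
The motifs searched on both strands were an IRF-type repeat (GAAANNGAA or GAANNGAAA), the NF-kB consensus, TGACG, the core of a CREB-type site, and CCAAT, the NF-Y box. In windows of 300 bases around the start, 14.5%, 5.91%, 24.6% and 34.6% of 35116 promoters held them. HLA-B, HLA-C and B2M held all of these motifs in the stretch shown, and TAP1 held the IRF-type repeat and the NF-kB consensus there. In the windows of 300 bases of members not printed, CD276 held CCAAT alone of these motifs and CD274 the IRF-type repeat alone (3 matches), and both were called higher in ACHN. TAP2 held 2 IRF-type repeats and TGACG, PSMB9 held TGACG and CCAAT, and neither was called there. These descriptions cover 1 start per gene. CD276 and TAP1 each have a further listed start, whose 300-base window held none of these motifs. The 300-base windows of HLA-B and HLA-C were identical at 269 of 304 aligned positions. TAP1 and PSMB9 start 488 bases apart on opposite strands. The printed genes were picked by their call in ACHN, and the part of the motifs in the changes was not tested.

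Among 8 genes of class I peptide loading and trimming, 7 were lower and 1 higher with the mimic in A-498, with a median log2 fold change of -0.40, beside 27.0% lower and 25.5% higher among all genes tested. CALR, the chaperone calreticulin, fell from 846 ± 18.5 to 578 ± 1.46 CPM (SD, n = 2, log2 fold change -0.55, adjusted p = 5.39e-09), and CANX, the chaperone calnexin, fell from 1413 ± 56.2 to 1015 ± 9.93 CPM (log2 fold change -0.48, adjusted p = 3.00e-08). TAPBPL, a peptide editor related to tapasin, was the gene that rose (log2 fold change 0.70, adjusted p = 1.73e-05). With the same mimic in 786-O, with 1 library a group, 6 of the 8 had a log2 ratio below 0, beside 51.0% of all genes. The median there was -0.22. CANX (0.0055) and ERAP1 (0.015) were not below 0 in 786-O, and TAPBPL was lower (-0.84), opposite to A-498. In ACHN 7 of the 8 were higher with the inhibitor and 0 lower, with a median of 0.22, beside 17.3% higher among all genes. TAPBPL rose from 19.0 ± 1.26 to 25.1 ± 1.04 CPM (SD, n = 3), the trimming peptidase ERAP1 from 109 ± 0.770 to 138 ± 3.57 CPM (adjusted p = 1.12e-05), and ERAP2, a related trimming peptidase, from 24.6 ± 1.83 to 29.5 ± 1.48 CPM (adjusted p = 0.00249).

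The 9 proteasome genes did not move one way. In A-498, 4 were lower and 4 higher (27.0% and 25.5% of all genes), among them PSMB5, a constitutive catalytic subunit (log2 fold change -0.35, adjusted p = 4.77e-06), PSMB10, an immunoproteasome subunit (0.43, adjusted p = 0.00513), and PSME1, a subunit of the interferon-inducible activator (0.29, adjusted p = 3.46e-05). In ACHN 1 was higher, PSMB5 (0.19, adjusted p = 0.00232), and 1 lower, PSME3 (-0.15, adjusted p = 0.0125), where 17.3% of all genes were higher and 14.4% lower.

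Of 16 other B7 family and checkpoint ligands, 14 passed the filter on low counts in A-498, where 8 were lower and 2 higher with the mimic, beside 27.0% and 25.5% of all genes. The largest changes were in genes at low level. VTCN1 (B7-H4) rose from 0.793 to 2.34 CPM (adjusted p = 8.15e-06), PDCD1LG2 (PD-L2) rose from 0.158 to 0.430 CPM (adjusted p = 0.00908), and HHLA2 fell from 0.646 to 0.267 CPM (adjusted p = 0.00305). In ACHN 8 of 10 tested were higher with the inhibitor and 0 lower, beside 17.3% and 14.4% of all genes. VSIR (VISTA) rose from 16.1 ± 0.373 to 26.9 ± 1.97 CPM, NCR3LG1, the ligand of the NK receptor NKp30, from 50.02 ± 1.52 to 78.9 ± 3.51 CPM, and PDCD1LG2 from 9.80 ± 0.521 to 14.7 ± 1.10 CPM (SD, n = 3). Their adjusted p-values were 5.27e-08, 5.54e-09 and 9.99e-06.

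Of 26 regulators of class I and PD-L1 expression, 10 were lower, 8 higher and 8 not called in A-498, beside 27.0% lower and 25.5% higher of all genes. STAT3, a cytokine-activated transcription factor, fell from 310 ± 8.09 to 166 ± 0.177 CPM (log2 fold change -0.90, adjusted p = 1.19e-10), RFXAP, a subunit of the RFX complex, fell from 5.05 to 2.25 CPM (adjusted p = 1.45e-06), and SOCS3, an inhibitor of cytokine signalling, rose from 22.7 to 41.6 CPM (adjusted p = 1.23e-08). In ACHN, 6 of 25 tested were higher and 1 lower with the inhibitor, beside 17.3% and 14.4% of all genes. STAT3 rose from 207 ± 4.04 to 282 ± 7.66 CPM (SD, n = 3, log2 fold change 0.44, adjusted p = 1.42e-07), IFNAR1, a type I interferon receptor chain, rose by 0.43 (adjusted p = 4.14e-06), and STAT2, which acts below that receptor, rose by 0.40 (adjusted p = 1.40e-06).

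**Figure D3:**
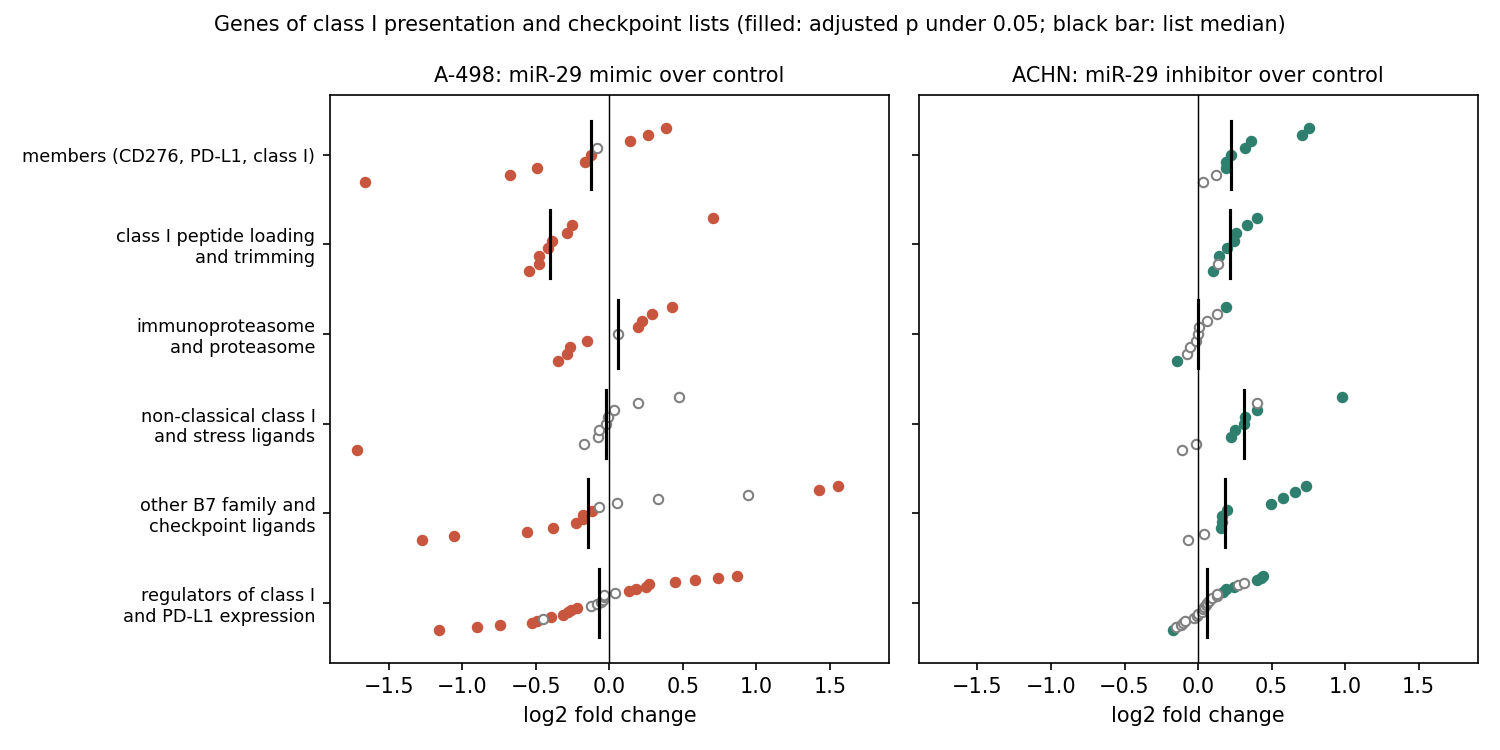
Log2 fold change (x axis) of each tested gene in 6 gene lists (y axis) for A-498 (left, mimic over control) and ACHN (right, inhibitor over control). Filled points had an adjusted p under 0.05, open points did not, and black bars are list medians. The peptide loading list has its median at -0.40 in A-498 and 0.22 in ACHN, while the proteasome list lies on both sides of 0 in A-498.

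Before any miR-29 reagent, the lines differed in most of these genes. Control libraries of 786-O and A-498 received the control mimic and those of ACHN the control inhibitor, so ACHN and its reagent cannot be told apart here. All 9 members were called between A-498 and ACHN (75.3% of 21737 genes tested), 8 between 786-O and A-498 (74.7%) and 7 between 786-O and ACHN (73.6%), shares that were high for all genes. The values here are CPM with TMM scaling over the 6 control libraries, as mean ± SD with n = 2 for A-498 and n = 3 for ACHN, and 1 library for 786-O. Every p of a 786-O contrast therefore rests on the spread of the A-498 and ACHN controls. CD274 varied most between A-498 and the other lines: 18.9 ± 1.10 CPM in ACHN, 11.2 in 786-O and 3.56 ± 0.558 in A-498. ACHN exceeded A-498 by 5.32-fold (adjusted p = 3.62e-21) and 786-O exceeded A-498 by 3.15-fold (adjusted p = 9.30e-14). PSMB9 was highest in ACHN at 66.6 ± 1.39 CPM, then A-498 at 26.0 ± 0.985 and 786-O at 12.98, 5.13-fold from highest to lowest (adjusted p = 4.31e-21). TAP2 stood at 38.8 CPM in 786-O and 37.4 ± 1.92 in ACHN, which did not differ by the test (log2 difference 0.053, SE 0.0793, adjusted p = 0.554), and at 14.1 ± 0.913 in A-498.

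CD276 was nearly level in A-498 (121 ± 6.93 CPM) and 786-O (119 CPM), with a log2 difference of -0.026 (786-O minus A-498, SE 0.0665, adjusted p = 0.733), and stood at 86.2 ± 4.90 CPM in ACHN (A-498 1.40-fold higher, adjusted p = 2.00e-10). B2M was highest in A-498 at 847 ± 34.7 CPM, then 562 ± 20.1 in ACHN and 497.8 in 786-O. HLA-B ran in the same order, at 300 ± 9.92, 213 ± 2.27 and 180 CPM, while HLA-C ran from 348 ± 7.44 in ACHN to 307 ± 17.2 in A-498 and 217 in 786-O. TAP1 was highest in ACHN at 106 ± 1.48 CPM, then 74.4 in 786-O and 59.0 ± 2.10 in A-498. NLRC5 varied least, from 18.5 CPM in A-498 to 21.0 ± 1.13 in ACHN and 21.5 in 786-O, and its calls against A-498 were lost in DESeq2 (adjusted p = 0.107 for ACHN and 0.130 for 786-O), that against ACHN also without ACHN control replicate 3 (adjusted p = 0.0561), and that against 786-O also with library size in place of TMM (adjusted p = 0.260) and with no filter (adjusted p = 0.0901).

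**Figure D4:**
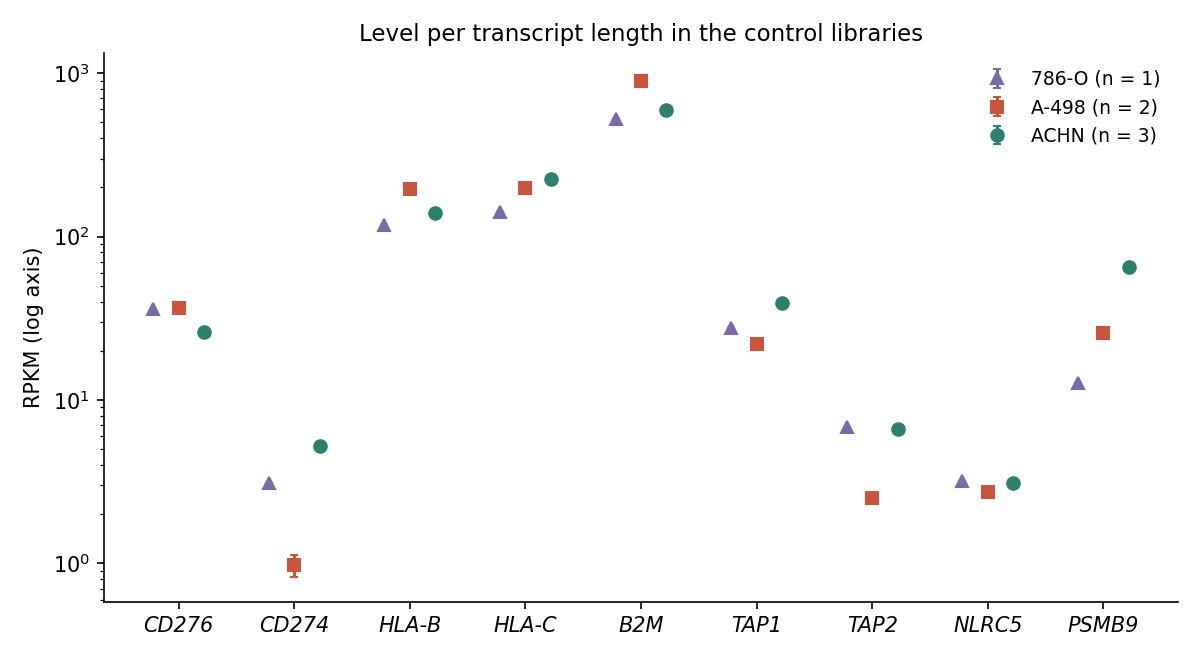
Level per length (RPKM on the canonical transcript length, log axis) of the 9 genes (x axis) in the control libraries of 786-O (triangles, n = 1), A-498 (squares, n = 2) and ACHN (circles, n = 3), with bars of 1 SD where n is 2 or 3. B2M is highest at 528 to 898 RPKM and CD274 in A-498 lowest at 0.978 RPKM.

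Per length, which allows genes to be compared, the levels in RPKM on the canonical transcript length put B2M first in every line, at 898 ± 36.8 in A-498, 595 ± 21.4 in ACHN and 528 in 786-O. HLA-C and HLA-B followed, at 199 ± 11.2 and 195 ± 6.46 in A-498, a gap within their SD, and at 226 ± 4.82 and 138 ± 1.48 in ACHN. That order also held on the total exon length of the genes. CD276 came next in A-498, at 36.7 ± 2.10 RPKM against 21.96 ± 0.784 for TAP1. CD274, TAP2 and NLRC5 were the lowest 3 in each line on either length, at 0.978 ± 0.154, 2.50 ± 0.162 and 2.72 RPKM in A-498.

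The genes whose shifts within the lines were most like those of a member were ranked by Pearson correlation of log2 CPM over all 12 libraries, after the mean of each line was subtracted, among 10545 genes, as a description. The measure therefore follows shifts within a line and not the levels of the lines, and since the points share lines and treatments no p is given. For CD276 the closest were SLC2A1 (r = 0.998), RCC2, ANKRD52, VPS26B and MMP14 (r = 0.997 for the last). SLC2A1, the glucose transporter GLUT1, changed by -1.05 in A-498, 0.46 in ACHN and -1.05 in 786-O on the log2 scale, and RCC2 by -2.11, 0.88 and -1.89. For CD274 the closest were MAP3K7CL (r = 0.982), TMEM230, TMEM237, LGALS8 and PDP1. For HLA-B they were P2RX4 (r = 0.994), GTPBP2, UBA7, ZSWIM6 and ABTB3. Between members, the correlation of these centred values was highest for CD276 with NLRC5 (0.952), then TAP2 with NLRC5 (0.947) and CD276 with TAP2 (0.942). It was 0.905 for CD274 with HLA-B, 0.847 for CD276 with HLA-C and 0.259 for CD276 with CD274. The lowest was 0.157, for TAP1 with TAP2.

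The libraries held 39919554 to 70027392 reads in genes, and no replicate pair agreed to within counting noise. Immune cell markers were near 0: their summed level over 10 genes was 1.20 to 7.36 CPM in the 12 libraries (TMM over all 12), MS4A1 and NKG7 had no read in any, CD3E had none in 11, and PTPRC reached 0.228 CPM. ITGAM made up most of that sum and rose in A-498 with the mimic (log2 fold change 0.90, adjusted p = 3.18e-05). Of the renal markers, PAX8 was present in every library at 68.5 to 674 CPM. CA9, a carbonic anhydrase typical of clear cell carcinoma, was at 7.11 to 10.9 CPM in A-498 but at most 0.331 CPM in 786-O and 0.166 CPM in ACHN, and LRP2, a proximal tubule receptor, was at most 0.174 CPM. Of the 8 renal markers tested, 6 were higher with the mimic in A-498 (25.5% of all genes), PAX8 by 0.82 (adjusted p = 6.75e-09), CUBN by 0.85 (adjusted p = 0.000203) and CA9 by 0.59 (adjusted p = 2.72e-05). In ACHN 4 were lower and 1 higher with the inhibitor (14.4% and 17.3% of all genes), with VIM at -0.44 (adjusted p = 5.38e-08), KRT18 at -0.27 (adjusted p = 7.30e-06) and NDUFA4L2 at 0.48 (adjusted p = 0.0412). The 6 fibroblast and endothelial markers summed to 0.867 to 23.8 CPM, with PDGFRB at -1.51 in A-498 (adjusted p = 2.21e-05) and 0.79 in ACHN (adjusted p = 0.000458) and DCN at 1.12 in ACHN (adjusted p = 0.00563). The highest sum was that of the 786-O control library, where LUM had 785 counts, against 276 with the mimic. DCN was at low level, at 0.264 CPM in the ACHN controls and 0.568 CPM with the inhibitor. The part of these markers in the members' changes was not tested.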

How the data were processed

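RNA-seq libraries were made by the study from rRNA-depleted RNA with a stranded kit and sequenced as 100 bp paired-end reads. Per the study's methods, reads were aligned to GRCh38 with HISAT2, and the authors deposited raw counts per gene from HTSeq-count (intersection-strict mode, Ensembl 87). Symbols were taken from GENCODE 44 by gene ID, and 98.1% of 58051 IDs matched. The 5 summary lines of each file were left out. They held the 37.2 to 48.0% of read pairs that were not assigned to a gene. Pairs ambiguous between genes are among these, at 3.57 to 9.06% of all pairs. Tables of the authors' own comparisons hold fold changes and p-values and were not used.

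Counts were fitted in edgeR 4.0.16 (R 4.3.3) with TMM scaling, filterByExpr by group, the quasi-likelihood test and Benjamini-Hochberg adjustment over all genes tested, at 0.05. A-498, ACHN and the control libraries of all lines were fitted separately, and the effect of the mimic in 786-O against A-498 as an interaction. In 786-O, with 1 library a group, the ratio was taken with a prior count of 2, and exact 95% intervals from the counts. DESeq2 1.42.0, library size or DESeq2 size factors in place of TMM, no filter, a threshold of 0.01 and leaving out each replicate were the alternatives. The A-498, ACHN and A-498 minus ACHN fits were tested on simulated data, with the same spread for every gene and most genes left unchanged. Log2 changes of 2 either way were called in the right direction for 93.5 to 100% of the changed genes that passed the filter. Calls among unchanged genes are not given. For changes of 0.5 it was 62.5 to 80.9%. Changes smaller than 0.5 were not simulated. Groups follow the sample labels. P-values measure the spread between cultures of a line. The common coefficient of variation estimated by edgeR was 3.83% in the A-498 fit and 5.25% in the ACHN fit.

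The members and gene lists were chosen with earlier results of these data known. Other named genes were, per list and line, the at most 3 called genes with the largest change, and the 5 genes most alike to CD276, CD274 and HLA-B in log2 CPM centred on the mean of each line. Promoters of 8 of the 9 members were found, without NLRC5. A further gene of the set is not reported here.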

Additional observations from a re-analysis of the deposited data

Results flagged for a closer look

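For 4 of the 9 genes the interaction test (edgeR) gave unlike effects of the mimic in its recipient lines, but 786-O has 1 library a group and borrowed the spread of A-498, and with the coefficient of variation fixed at 0.2 for every gene 0 of the 4 were called. The differences come from a joint scaling of both lines, and the values of each line from scaling within it, so they do not subtract exactly. For CD274 the log2 difference, 786-O minus A-498, was -0.95, with -0.62 in 786-O and 0.38 in A-498. For TAP1 the log2 difference was -0.70, with -0.48 in 786-O and 0.26 in A-498. For HLA-B it was -0.47, with -0.37 in 786-O and 0.14 in A-498. NLRC5 was lower with the mimic in both lines, by -0.90 in 786-O and -0.49 in A-498, and the log2 difference of -0.37 was not called without mimic replicate 2 of A-498 (adjusted p = 0.151), in DESeq2 (adjusted p = 0.171) or with the spread taken from all 12 libraries (adjusted p = 0.0569). Whether lines, transfections or single libraries differ cannot be told apart for 786-O.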

How the results depend on the processing

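In A-498 the direction of the 9 members held in every alternative, and 72 of 81 single-gene values kept their side of the threshold. The members lower in A-498 went from 5 to 3 with library size in place of TMM, and to 3 to 5 when a replicate was left out, with 2 to 3 higher. Members that fell in A-498 and rose in ACHN went from 4 to 2 with library size, and to 2 to 4 without a replicate. In ACHN 6 to 7 members stayed higher without a replicate, and PSMB9 ranged from -0.015 (without inhibitor replicate 2) to 0.072, never called. With the replicate block, ACHN calls went from 5680 to 5763 genes and 7 members stayed higher, and the numbers did not pair the libraries (correlation of same-numbered deviations 0.04, -0.05 and -0.005). No paired analysis was possible in A-498 because the groups share only replicate number 1. The interaction was called for 6695 genes, 4147 in DESeq2, 281 with the coefficient of variation fixed at 0.2, where 0 of 4 members were called, and 5512 to 7771 without a replicate, with 3 to 6 members lower. In that comparison B2M was called in 5 alternatives (adjusted p = 0.00393 with library size) and TAP2 in 2. Uncalled differences that turned sign were the interaction of CD276 (-0.105 to 0.013 without a replicate, 0.00040 with the spread of all 12 libraries) and HLA-C (-0.150 to 0.032 without a replicate), and at baseline CD276 for 786-O minus A-498 (-0.092 to 0.029 without a replicate), and for 786-O minus ACHN TAP2 (-0.037 with library size, -0.0077 with no filter) and NLRC5 (-0.050 with library size, -0.022 with no filter, -0.0017 to 0.080 without a replicate). The causes were not tested. With 1 library a group, the 786-O ratios have no replicate error, and all 27 of their alternatives stayed within the counting interval.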

Other observations

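Ligands read by NK cells and other innate receptors were measured beside the class I genes. ULBP2, a stress ligand of the receptor NKG2D, fell in A-498 from 8.40 ± 0.792 to 2.56 ± 0.251 CPM with the mimic (SD, n = 2, log2 fold change -1.72, edgeR adjusted p = 1.79e-08), and was the 1 gene called of 9 tested in its list of non-classical class I genes and stress ligands (27.0% of all genes were lower). In ACHN it rose from 7.31 ± 0.595 to 14.4 ± 1.13 CPM with the inhibitor (SD, n = 3, log2 fold change 0.98, adjusted p = 5.10e-08), and 6 of 9 tested genes of the list were higher and 0 lower, beside 17.3% and 14.4% of all genes. MR1, which presents vitamin metabolites to MAIT cells, rose by 0.40 (adjusted p = 8.63e-06), and ULBP1, another NKG2D ligand, by 0.32 (adjusted p = 0.0125). In 786-O, ULBP2 had 399 counts in the control and 133 in the mimic library, a log2 ratio of -1.58. The 3′ untranslated region of ULBP2 held 1 full match to the miR-29 seed followed by an A. MICB and RAET1L of the same list also held a full match, as did 2667 of 19023 genes with such a region. Neither was called in A-498 (log2 fold change -0.0077 and 0.47, adjusted p = 0.939 and 0.393). In ACHN, MICB rose by 0.22 (adjusted p = 0.00161) and RAET1L was not called (adjusted p = 0.390). The log2 ratio of MICB in 786-O was -0.62. The part of the match in these changes was not tested.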
